A study of Homo sapiens with 12 samples.

Results

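The genes described here are 10 genes that hold back the kinase complex mTORC1 or sit at its entry and exit points: DDIT4, TSC1, TSC2, SESN2, SESN3, CASTOR1, RRAGC, RRAGD, DEPTOR, and EIF4EBP1. They were chosen by symbol, and all 10 were found among the 60708 genes of the count tables. The cells were HCT116, a line from a human colorectal carcinoma that is labelled wild type, grown in RPMI1640 with fetal bovine serum. They were exposed for 24 h to oligomycin A (OA), which blocks the ATP synthase of mitochondria, or to tunicamycin (TN), which blocks N-glycosylation and thereby causes ER stress. The sample labels give 5 µg/mL for both stressors, whereas the study's text gives a higher dose of OA. Each stressor had 3 biological replicates and its own 3 control replicates treated with DMSO alone, called OA controls and TN controls here, which makes 12 libraries. No group carries a transgene or an engineered allele according to the labels, and all groups come from 1 cell line.

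mTORC1 is a protein kinase complex at the lysosome that promotes protein synthesis and growth when growth factors, amino acids, and energy are sufficient, and represses autophagy. DDIT4 (also called REDD1) restrains it through the TSC1-TSC2 complex, which switches off the small GTPase RHEB, while sestrins and CASTOR1 report low leucine and low arginine to the GATOR2 complex. RagC and RagD, encoded by RRAGC and RRAGD, pair with RagA or RagB to bring mTORC1 to the lysosome, DEPTOR binds the kinase itself, and 4E-BP1, encoded by EIF4EBP1, holds the cap-binding protein eIF4E until mTORC1 phosphorylates it. Only RNA was measured in these libraries, so the values say nothing of kinase activity or of the phosphorylation of 4E-BP1.

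The libraries held 9884124 to 24983573 counts. CPM denotes counts scaled to library size after TMM normalization and is the unit of level throughout. A gene was called when its adjusted p was under 0.05 in the quasi-likelihood test of edgeR, with p-values adjusted over all genes tested by the Benjamini-Hochberg method. The noncoding RNA RN7SL1 took 6.02% to 8.11% of the counts in the controls and 8.40% to 17.9% in the treated libraries, with the largest shares in OA replicate 2 (17.9%) and TN replicate 1 (13.3%), and its part in the results was not tested. Libraries also differed in base composition. Among the tenth of genes with the lowest GC content, the median log2 deviation from the group mean was -0.74 in OA replicate 2, 0.80 in OA replicate 1, and -1.01 in TN replicate 1, and in the controls it ranged from -0.61 to 0.58. Of 8 colon epithelial markers, 6 were well expressed, whereas VIL1 and CDH17 reached at most 3 and 6 counts. The markers CDH1 and CLDN7 were called higher with both stressors, but with OA not without OA replicate 3 or any 1 OA control, and with TN not without TN control replicate 2 or 3. EPCAM, KRT8, KRT18, and KRT19 were not called in this test. Their log2 fold changes were -0.23, 0.10, 0.70, and 0.53 with OA and 0.08, 0.17, 0.66, and 0.22 with TN. Of 5 leukocyte markers, none exceeded 8 counts in any library. The 6 fibroblast and endothelial markers summed to 1.19 to 2.19 CPM in the OA controls, 4.25 to 12.5 CPM with OA, 1.71 to 3.83 CPM in the TN controls, and 1.75 to 4.11 CPM with TN. Most of that signal was COL1A1, and none of the other markers exceeded 5 counts in any library. The source of the COL1A1 signal was not tested.

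Of the 10 genes, DDIT4 and SESN2 were called, both higher, and this held with OA and with TN. The other 7 genes that passed the filter on low counts were not called with either stressor, and CASTOR1 was too low to be tested. This fit had no term for the replicate number. With such a term (replicate block), 5 were called with TN, adding SESN3, DEPTOR, and EIF4EBP1, while 27.1% of all genes were. The 2 of 9 tested genes stand against a background of 4.48% of 14681 genes called with OA and 6.99% of 14432 genes called with TN. Among the 9, log2 fold changes had a median of 0.41 with OA, with 7 of 9 above 0, and of 0.62 with TN, with 8 of 9 above 0. The medians over all genes tested were -0.02 and -0.03. Where groups are said not to overlap, this is a description, since the share of all genes without overlap was not counted. In bulk RNA, a change in the level per cell and a change in the number of cells with the transcript cannot be told apart.

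**Figure D1:**
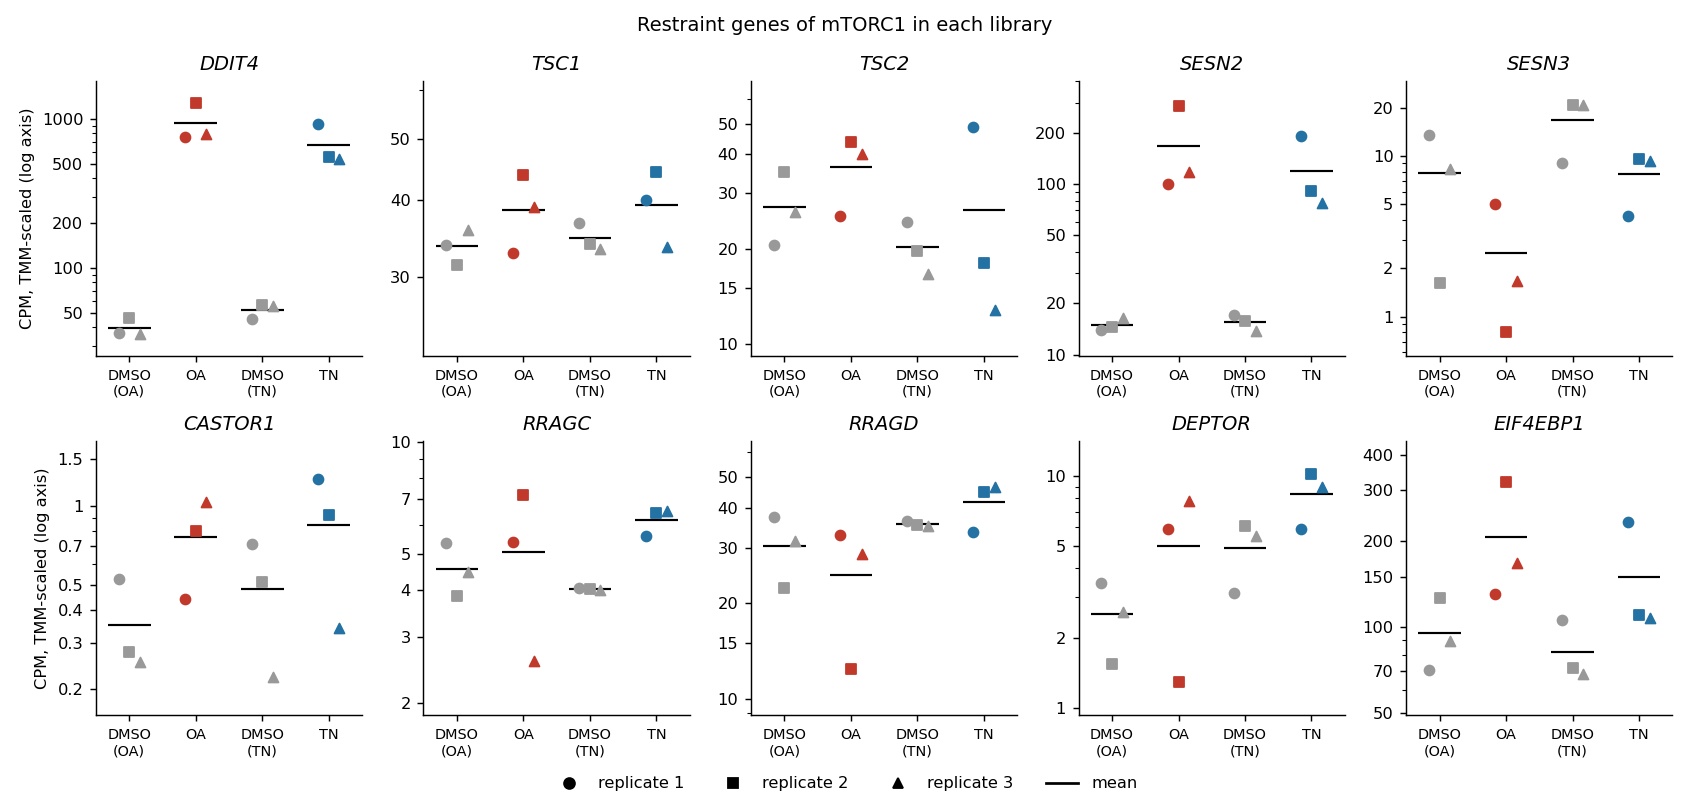
CPM of each gene (log axis, own scale in each panel) in the 3 libraries of each group, with marker shape for the replicate number and a bar at the group mean. DDIT4, SESN2, and EIF4EBP1 lie above every own control with both stressors, and RRAGC with TN, whereas the other panels overlap. The share of all genes without overlap was not counted.

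The promoters of DDIT4 and SESN2 are shown because these genes moved together, and that of TSC2 because it was the only one of the windows found that held a C/EBP-ATF composite element although TSC2 itself was not called. The windows are the 250 bases before the RefSeq start site on GRCh38.p14, at chr10:72273674-72273923 (plus strand) for DDIT4, chr1:28259268-28259517 (plus strand) for SESN2, and chr16:2047735-2047984 (plus strand) for TSC2. Capitals mark matches, on either strand, to TGATGNAA (the composite element bound by ATF4 with C/EBP factors), TGACGTCA (the cyclic AMP response element), ACGTG (the core of the hypoxia response element), or CACGTG (the E-box, which holds ACGTG).
DDIT4: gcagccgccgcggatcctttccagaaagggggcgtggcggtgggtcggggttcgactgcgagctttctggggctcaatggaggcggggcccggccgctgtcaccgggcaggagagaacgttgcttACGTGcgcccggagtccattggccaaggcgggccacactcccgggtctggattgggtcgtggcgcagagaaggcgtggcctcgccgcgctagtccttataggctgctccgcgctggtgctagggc
SESN2: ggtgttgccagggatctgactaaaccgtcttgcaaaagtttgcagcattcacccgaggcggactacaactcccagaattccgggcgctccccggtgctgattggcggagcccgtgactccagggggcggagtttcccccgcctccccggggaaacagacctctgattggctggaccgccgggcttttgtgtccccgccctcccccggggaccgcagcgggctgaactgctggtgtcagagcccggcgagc
TSC2: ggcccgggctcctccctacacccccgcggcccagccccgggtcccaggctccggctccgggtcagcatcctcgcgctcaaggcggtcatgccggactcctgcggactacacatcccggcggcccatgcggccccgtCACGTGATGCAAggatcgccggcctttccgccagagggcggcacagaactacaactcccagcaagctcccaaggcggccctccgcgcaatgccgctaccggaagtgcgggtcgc
DDIT4 held 1 match to ACGTG, 125 bases before the start site, and SESN2 held none of the 4 motifs. In TSC2, the E-box begins 114 bases before the start site and shares its last bases with TGATGCAA, which begins 110 bases before it. Windows were found for 7 of the 10 genes, 8 windows in all, of which RRAGC also held the E-box and SESN3, TSC1, CASTOR1, and the second TSC2 window held no match. Of 35116 promoters of the same length, 3.14% held TGATGNAA, 1.65% TGACGTCA, 18.5% ACGTG, and 6.34% CACGTG. A match describes the letters of the window, and its absence says only that these letters are not there.

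DDIT4 (ENSG00000168209.6) lies on chromosome 10 (72273919 to 72276036, plus strand, hg38). Its level in replicates 1, 2, and 3 was 36.5, 45.9, and 35.8 CPM in the OA controls and 756, 1279, and 787 CPM with OA, and values below follow the same order. The lowest OA library was far above the highest control. Means were 39.4 ± 5.60 and 941 ± 293 CPM (SD, n = 3 each), and the log2 fold change was 4.58 with a 95% interval of 3.85 to 5.31 (adjusted p = 0.00219, edgeR's quasi-likelihood test). DDIT4 was at 45.1, 56.5, and 55.0 CPM in the TN controls and at 917, 557, and 539 CPM with TN. Here too the groups were well apart, with TN replicate 1 the highest. It rose on average from 52.2 ± 6.19 to 671 ± 213 CPM (SD, n = 3 per group), by 3.68 on the log2 scale (95% interval 3.01 to 4.36, adjusted p = 0.00240). DDIT4 remained called in all alternative fits of either stressor, with log2 fold changes of 4.28 without OA replicate 2 and 3.44 without TN replicate 1.

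DDIT4L, a relative of DDIT4 that also restrains mTORC1, was at 9.88 ± 2.15 CPM in the OA controls and 6.31 ± 2.45 CPM with OA, with overlap, and at 13.3 ± 1.96 and 8.82 ± 3.01 CPM in the TN comparison, where every TN library was below every control. Its log2 fold change was -0.64 with OA (adjusted p = 0.351) and -0.59 with TN (adjusted p = 0.306, both edgeR), and it was not called. An edgeR fit with GC offsets, which called 23.2% of all genes, called it lower with TN, at -0.65 (adjusted p = 0.0435).

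TSC1 and TSC2, the partners through which DDIT4 acts, were not called. TSC1 (ENSG00000165699.15, chromosome 9, 132891348 to 132946874, minus strand), which stabilizes TSC2, was at 33.8, 31.4, and 35.8 CPM in the OA controls and at 32.8, 43.8, and 38.9 CPM with OA. It was at 36.7, 33.9, and 33.3 CPM in the TN controls and at 39.9, 44.4, and 33.6 CPM with TN. The groups overlapped in both comparisons. Its log2 fold change was 0.19 with OA (95% interval -0.35 to 0.74) and 0.18 with TN (95% interval -0.29 to 0.65), and scaling to total counts turned the former to -0.04.

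TSC2 (ENSG00000103197.18, chromosome 16, 2047967 to 2089491, plus strand), the part of the complex that acts on RHEB, was at 20.6, 35.1, and 26.1 CPM in the OA controls and at 25.4, 43.7, and 40.03 CPM with OA. It was at 24.3, 19.7, and 16.7 CPM in the TN controls and at 48.8, 18.1, and 12.8 CPM with TN. TN replicate 1 was the highest of the TN libraries, and replicates 2 and 3 lay below their same-numbered controls. The transcript of TSC2 is rich in GC (62.0%), and its highest library in each group was one in which genes of low GC content were low. Its log2 fold change was 0.41 with OA (95% interval -0.31 to 1.14) and 0.39 with TN (95% interval -0.74 to 1.52), and the latter was -0.35 without TN replicate 1. RHEB, the GTPase that the complex switches off, had log2 fold changes of 0.015 with OA and -0.43 with TN and was not called (adjusted p = 0.976 and 0.288, edgeR).

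SESN2 (ENSG00000130766.5, chromosome 1, 28259518 to 28282491, plus strand), a leucine-binding sestrin, rose with both stressors. Its level was 13.9, 14.5, and 16.4 CPM in the OA controls and 99.8, 286, and 117 CPM with OA. Every OA library was above every control, and OA replicate 2 was far above the others. Means were 14.9 ± 1.27 and 168 ± 103 CPM (SD, n = 3 each), and the log2 fold change was 3.49 (95% interval 2.48 to 4.50, adjusted p = 0.0157, edgeR). Without OA replicate 2, it was 2.85 and still called, but without OA control replicate 1, 2, or 3 the adjusted p was 0.0774, 0.0933, and 0.127. In these fits, DDIT4 was the only one of the 10 genes called, and over all genes 5, 3, and 3 were called.

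SESN2 was at 17.1, 15.8, and 13.8 CPM in the TN controls and at 190, 91.6, and 77.7 CPM with TN. The groups did not overlap, and TN replicate 1 was the highest. Means were 15.6 ± 1.68 and 120 ± 61.2 CPM (SD, n = 3 each), and the log2 fold change was 2.94 (95% interval 2.06 to 3.82, adjusted p = 0.00716, edgeR), and the gene remained called in all alternative fits of TN.

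SESN3 (ENSG00000149212.12, chromosome 11, 95165513 to 95232541, minus strand), another sestrin, was lower in all 3 treated libraries than in the same-numbered control with both stressors. Its level was 13.5, 1.62, and 8.34 CPM in the OA controls and 5.01, 0.798, and 1.66 CPM with OA, and the groups overlapped, since control replicate 2 was low. The low level of OA replicate 2 rested on 8 counts. With TN, it went from 8.98, 20.9, and 20.7 CPM to 4.21, 9.59, and 9.27 CPM. TN replicate 1 and its control were both the lowest of their groups. Its log2 fold change was -1.62 with OA (95% interval -3.53 to 0.30, adjusted p = 0.285) and -1.13 with TN (95% interval -2.15 to -0.10, adjusted p = 0.170, both edgeR), so that SESN3 was not called. The value for OA was -2.68 without OA replicate 1 and -0.89 without OA control replicate 1.

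The differences between same-numbered TN and control libraries were close together for SESN3, at -1.09, -1.12, and -1.16 on the log2 scale. The replicate numbers were taken to pair the TN libraries. Control replicate 3, however, correlated as well with TN replicate 2 (0.44) as with TN replicate 3 (0.43). A fit with a replicate block was also made, in which 27.1% of all genes were called. SESN3 was among them, at -1.13 (adjusted p = 0.00461, edgeR). The transcript of SESN3 has the lowest GC content of the 10 genes (37.1%), and its lowest library in each group was one in which low-GC genes were low, whereas OA replicate 3 (1.66 CPM) was low for SESN3 but not for low-GC genes. With offsets for GC content, which were chosen after the data were seen, its log2 fold change was -1.14 with TN (adjusted p = 0.00452) and -1.66 with OA (adjusted p = 0.0611). These fits called 23.2% and 20.2% of all genes.

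SESN1, another sestrin, was at 18.8 ± 1.81 CPM in the OA controls and 11.3 ± 7.39 CPM with OA, and at 22.3 ± 2.90 and 14.7 ± 1.84 CPM in the TN comparison. Every treated library was below every own control, but the gene was not called (log2 fold change -0.73, adjusted p = 0.454 with OA, and -0.60, adjusted p = 0.156 with TN, edgeR). In the TN fit with the replicate block it was, at -0.60 (adjusted p = 0.0356). The ratio of SESN2 to SESN1 counts within a library does not depend on scaling. On the log2 scale, this ratio was -0.46, -0.22, and -0.32 in the OA controls and 2.73, 6.65, and 2.86 with OA. It was -0.17, -0.51, and -0.86 in the TN controls and 3.90, 2.50, and 2.33 with TN. The ratio was thus below 0 in all 6 controls and above 0 in all 6 treated libraries. The difference was 4.41 with OA and 3.42 with TN (two-sided exact permutation test, p = 0.1 for each, the smallest that 3 against 3 allow), and the former was 3.13 without OA replicate 2. Over all fits that left out 1 library, it was 3.13 to 5.09 with OA and 2.93 to 3.71 with TN.

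CASTOR1 (ENSG00000239282.8, chromosome 22, 30285117 to 30289622, minus strand), the arginine sensor, had only 3 to 13 counts per library and did not pass the filter in either comparison. Its level was 0.524, 0.277, and 0.254 CPM in the OA controls and 0.442, 0.798, and 1.04 CPM with OA, and the groups overlapped. In the TN comparison it ranged from 0.223 to 0.712 CPM in the controls and from 0.343 to 1.26 CPM with TN. Without a filter, its log2 fold change was 1.06 with OA (adjusted p = 0.616) and 0.70 with TN (adjusted p = 0.709, both edgeR), so a difference was not detectable at this depth. In the annotation, 46.0% of its exon bases are shared with another gene on the same strand, and STAR counts no read that lies in more than 1 gene.

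Neither of the Rag GTPases RagC and RagD was called. RRAGC (ENSG00000116954.8, chromosome 1, 38838198 to 38859772, minus strand) was at 5.35, 3.87, and 4.47 CPM in the OA controls and at 5.38, 7.18, and 2.59 CPM with OA, so that the OA libraries lay on both sides of the controls. In the TN controls it was at 4.05, 4.04, and 4.01 CPM, and with TN at 5.58, 6.45, and 6.53 CPM. All TN libraries were thus above all controls. RRAGC had a log2 fold change of 0.15 with OA (95% interval -0.80 to 1.10) and of 0.62 with TN (95% interval 0.05 to 1.19, adjusted p = 0.175, edgeR). The value for OA turned to -0.10 with scaling to total counts and to -0.16 without OA replicate 2. Another gene shares 23.1% of the exon bases of RRAGC on the same strand.

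RRAGD (ENSG00000025039.15, chromosome 6, 89364616 to 89412273, minus strand) was at 37.4, 22.4, and 31.5 CPM in the OA controls and at 33.0, 12.4, and 28.6 CPM with OA. It was at 36.4, 35.4, and 35.0 CPM in the TN controls and at 33.7, 44.9, and 46.7 CPM with TN. Both comparisons overlapped, and replicate 2 was the lowest of its group both with OA and in the OA controls. RRAGD had a log2 fold change of -0.30 with OA (95% interval -1.20 to 0.60), which turned to 0.10 with scaling to ACTB and to 0.03 without OA replicate 2, and of 0.23 with TN (95% interval -0.25 to 0.72). The log2 ratio of RRAGD to RRAGC counts was lower by 0.40 with TN, from 3.13 ± 0.0221 to 2.73 ± 0.133 (SD, n = 3 each), with no overlap (two-sided exact permutation test, p = 0.1). With OA, it went from 2.71 ± 0.161 to 2.27 ± 1.36 (SD, n = 3 each) with overlap (exact p = 0.8), and without OA replicate 2 the difference of -0.44 became 0.31.

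The partners RRAGA and RRAGB were not called either. RRAGA was at 45.5 ± 1.48 and 51.8 ± 7.69 CPM in the OA comparison and at 46.9 ± 6.01 and 51.8 ± 12.1 CPM in the TN comparison. RRAGB was at 10.99 ± 1.19 and 10.5 ± 3.69 CPM in the former and at 11.1 ± 0.768 and 13.2 ± 1.68 CPM in the latter. The log2 fold changes of RRAGA, 0.19 and 0.14, turned to -0.04 and -0.03 with scaling to total counts, and that of RRAGB with OA, -0.07, turned to 0.37 with scaling to ACTB.

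DEPTOR (ENSG00000155792.10), on chromosome 8, was at 3.46, 1.54, and 2.59 CPM in the OA controls and at 5.90, 1.30, and 7.78 CPM with OA. The level of OA replicate 2, which rested on 13 counts, was below every control, whereas the other OA libraries were above all of them. In the TN controls, DEPTOR was at 3.12, 6.09, and 5.49 CPM, and with TN at 5.90, 10.1, and 8.93 CPM. The log2 fold change was 0.98 with OA (95% interval -0.43 to 2.40, adjusted p = 0.375) and 0.77 with TN (95% interval -0.05 to 1.59, adjusted p = 0.234, both edgeR). The same-numbered TN differences were 0.92, 0.74, and 0.70 on the log2 scale, and with the replicate block DEPTOR was called at 0.78 (adjusted p = 0.0426). An antisense gene overlaps 9.59% of its exon bases, and its reads can be told apart only if the counts used strand, which is not stated.

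EIF4EBP1 (ENSG00000187840.5), also on chromosome 8, was higher in every treated library than in every own control with both stressors, but was not called. Its level was 70.6, 126, and 89.4 CPM in the OA controls and 130, 320, and 167 CPM with OA, so the gap between the groups was small beside the spread. In the TN controls, it was at 106, 71.6, and 68.6 CPM, and with TN at 232, 110, and 107 CPM. TN replicates 2 and 3 were just above control replicate 1. Means were 95.3 ± 28.2 and 206 ± 101 CPM in the OA comparison and 82.0 ± 20.7 and 150 ± 71.1 CPM in the TN comparison (SD, n = 3 each). The log2 fold change was 1.11 with OA (95% interval 0.23 to 1.99, adjusted p = 0.133) and 0.87 with TN (95% interval 0.03 to 1.71, adjusted p = 0.193, both edgeR). It was 0.62 without OA replicate 2 and 0.44 without TN replicate 1.

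Same-numbered libraries of EIF4EBP1 differed by 0.89, 1.34, and 0.90 on the log2 scale with OA and by 1.13, 0.62, and 0.64 with TN. In the TN fit with the replicate block it was called at 0.80 (adjusted p = 0.00900, edgeR). The numbers were not taken to pair the OA libraries, but with a block EIF4EBP1 was called there too, at 1.04 (adjusted p = 0.00442, edgeR). The transcript has the highest GC content of the 10 genes (62.9%), and the highest library of each group was one in which low-GC genes were low. With GC offsets it was called with both stressors, at 1.08 with OA (adjusted p = 0.0178) and 0.80 with TN (adjusted p = 0.0118). These offsets, fitted to deviations within each group, lower the spread within groups by design, and called 20.2% and 23.2% of all genes. Both EIF4EBP1 and EIF4E have processed pseudogenes, and since reads that match several places are not counted, their counts are uncertain to that extent.

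**Figure D2:**
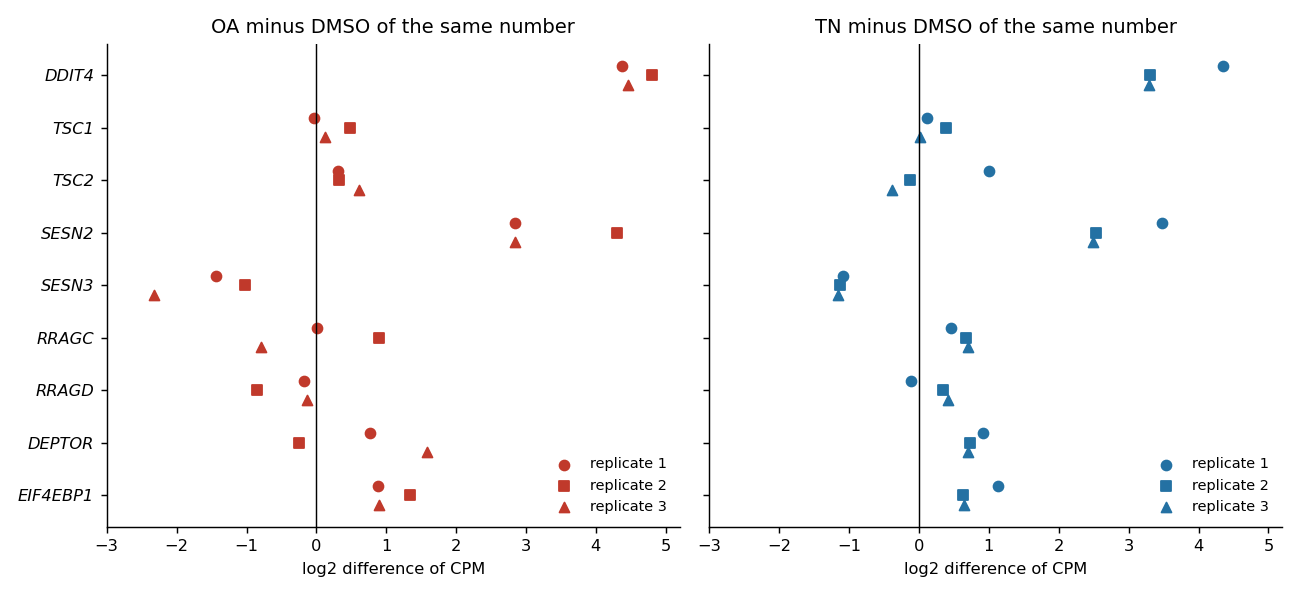
Difference of log2 CPM between each treated library and the control of the same replicate number, for the 9 tested genes. With TN, the 3 values of SESN3 lie between -1.16 and -1.09 and those of DEPTOR between 0.70 and 0.92, whereas with OA DEPTOR ranges from -0.25 to 1.58.

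EIF4E and EIF4EBP2 were not called, and both had log2 fold changes below 0. EIF4E, the cap-binding protein, was at 106 ± 31.1 CPM in the OA controls and 45.1 ± 27.4 CPM with OA, and at 135 ± 25.6 and 78.2 ± 40.9 CPM in the TN comparison. The treated libraries were below all controls in both comparisons. EIF4E had a log2 fold change of -1.24 with OA (adjusted p = 0.161), of -0.78 with TN (adjusted p = 0.324), and of -0.94 in the TN fit with the replicate block (adjusted p = 0.0251, all edgeR). With OA, 3 of 9 other settings called it lower, and so did the fit without OA replicate 1 (-1.81, adjusted p = 0.0437). With TN, 2 of 9 did so, and it was at -0.35 without TN replicate 1. EIF4EBP2, which encodes 4E-BP2, had log2 fold changes of -0.69 with OA (adjusted p = 0.142) and -0.49 with TN (adjusted p = 0.253), and -0.50 with the replicate block for TN (adjusted p = 0.0416). Of the 9 other settings, 2 called it lower with OA and 1 with TN. EIF4EBP3 was too low to be tested, with no more than 5 counts per library.

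The log2 ratio of EIF4EBP1 to EIF4E counts was -0.996, 0.65, and -0.14 in the OA controls and 0.82, 4.06, and 1.98 with OA. It was 0.0090, -1.06, and -1.12 in the TN controls and 2.90, 0.097, and 0.094 with TN. Treated and control libraries did not overlap, although the margin in each comparison was narrow. The ratio was higher by 2.45 with OA and by 1.76 with TN (two-sided exact permutation test, p = 0.1 for each, the smallest that 3 against 3 allow). It was higher by 1.56 without OA replicate 2 and by 0.82 without TN replicate 1, where the exact p was 0.2 for each. Over all fits that left out 1 library, the difference was 1.56 to 3.18 with OA (exact p up to 0.2). With TN, it was 0.82 to 2.22 (exact p up to 0.4).

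**Figure D3:**
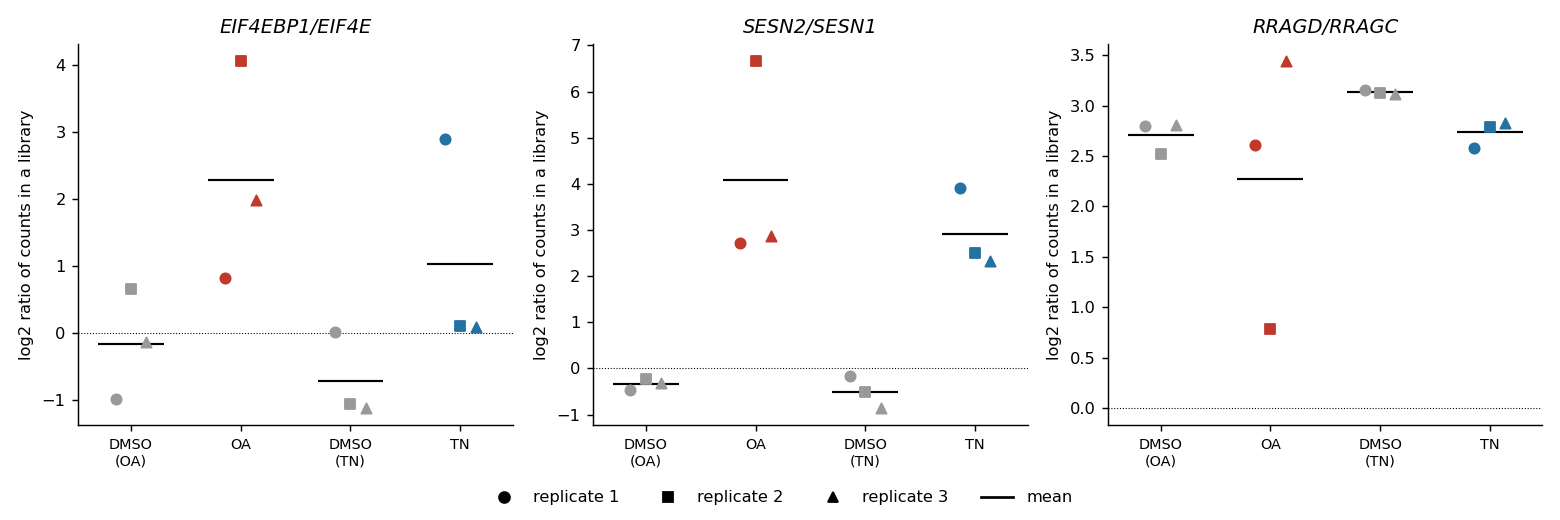
Log2 ratio of the counts of 2 genes within each library, with marker shape for the replicate number and a bar at the group mean. The SESN2 to SESN1 ratio is below 0 in all controls and at least 2.33 in all treated ones, the EIF4EBP1 to EIF4E ratio is higher without overlap by a narrower margin, and the RRAGD to RRAGC ratio is lower without overlap only with TN.

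To test whether the stressors differed, the log2 fold change with TN was subtracted from that with OA in 1 fit of the 12 libraries. Of the 10 genes, all tested here, none was called, and over all 15429 genes edgeR called 0%, while 348 had an unadjusted p under 0.05 and DESeq2 called 2 and edgeR without a filter 25. DDIT4 was the only one of the 10 with an unadjusted p under 0.05, at 0.82 (95% interval 0.09 to 1.54, unadjusted p = 0.0298, adjusted p = 1.00). The difference for SESN2 was 0.47 (95% interval -0.66 to 1.61), and for EIF4EBP1 it was 0.17 (95% interval -0.97 to 1.31). SESN3 had -0.53 (95% interval -2.80 to 1.74), an interval that spans changes in either direction. RRAGC and RRAGD had -0.55 and -0.58, and the intervals of both included 0.

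**Figure D4:**
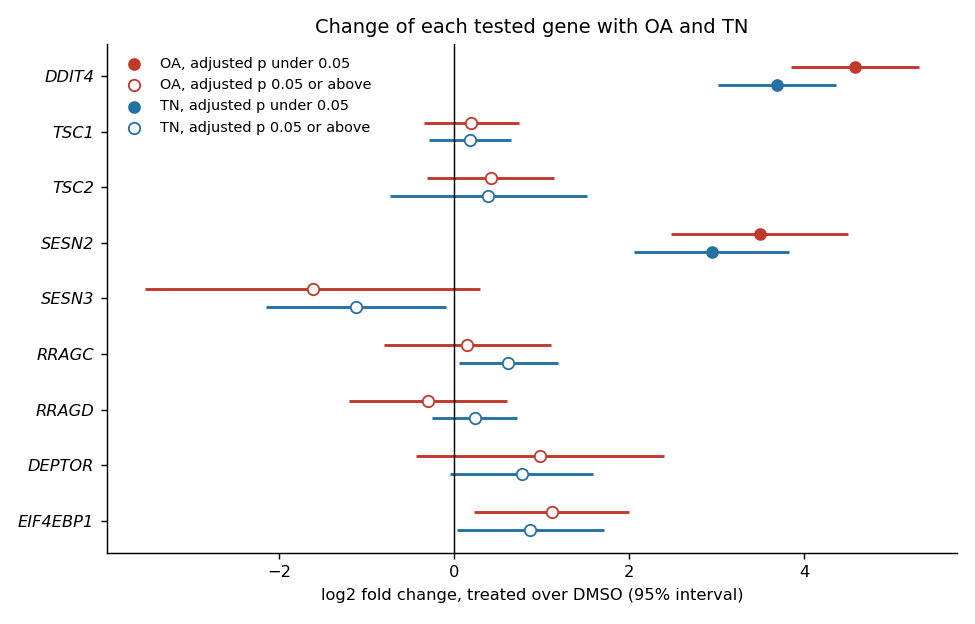
Log2 fold change of each tested gene with its 95% interval, for OA and TN, filled where the adjusted p was under 0.05. Only DDIT4 (4.58 and 3.68) and SESN2 (3.49 and 2.94) are filled, and the OA and TN intervals of each gene overlap.

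To compare genes with each other, CPM was divided by the length of the canonical transcript in kilobases. Without stress, EIF4EBP1 was highest on this scale, with 115 ± 34.1 CPM per kilobase in the OA controls, followed by DDIT4 with 22.6 ± 3.21. RRAGD (6.18 ± 1.54) came next, and SESN2 (4.32 ± 0.367), TSC2 (4.25 ± 1.14), and TSC1 (3.91 ± 0.257) did not differ from their neighbours in this group beyond their spread. RRAGC was at 1.70 ± 0.277, DEPTOR at 0.986 ± 0.374, SESN3 at 0.819 ± 0.624, and CASTOR1 at 0.234 ± 0.0999, of which DEPTOR and SESN3 did not differ beyond their spread. The TN controls had the same leading genes, EIF4EBP1 at 99.2 ± 25.0 and DDIT4 at 29.9 ± 3.55 CPM per kilobase. With OA, DDIT4 came first at 539 ± 168, then EIF4EBP1 at 249 ± 122 and SESN2 at 48.5 ± 29.8. With TN, the order was the same, at 385 ± 122, 181 ± 86.0, and 34.6 ± 17.7, and DDIT4 was above EIF4EBP1 on this scale in all 6 treated libraries. SESN2 was then above RRAGD, TSC1, and TSC2, which were at 4.14 to 8.49 CPM per kilobase with TN.

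Other genes of the pathway were read out from lists of 81 genes in 9 groups. Of the 77 tested with OA, 3 were called higher and none lower, and of the 78 tested with TN, 3 were called higher and 1 lower, to be read against the background of 4.48% and 6.99%. Their median log2 fold change was -0.10 with OA and -0.07 with TN. In the TN fit with the replicate block, 8 were called higher and 11 lower, and with GC offsets 7 were called higher and 6 lower with OA and 6 higher and 8 lower with TN. Over all genes, these fits called 27.1%, 20.2%, and 23.2%. No gene was called among the relatives of the TSC arm and DDIT4 (6 genes tested), the amino acid sensors with FLCN (9), the Rag and Ragulator genes (7), GATOR1 and KICSTOR (7), GATOR2 (5), or the outputs of mTORC1 in translation (11) in edgeR's quasi-likelihood test. Of these 45 genes, 6 had an unadjusted p under 0.05 with OA and 7 with TN. Over all genes tested, 3415 of 14681 did so with OA and 3504 of 14432 with TN. DESeq2 called 2 of the 45 genes with each stressor. The replicate block called 2 higher and 8 lower with TN, and GC offsets called 2 higher and 5 lower with OA and 6 lower with TN, which are to be read against the same shares over all genes, and against 13.1% with OA and 15.0% with TN for DESeq2. In GATOR2, to which sestrins bind, log2 fold changes ran from -0.66 to 0.52 with OA and from -0.65 to 0.27 with TN. FNIP2, in the list of amino acid sensors with FLCN, had the lowest value of the 9 lists with both stressors. It was at -1.88 with OA (adjusted p = 0.0710) and -1.02 with TN (adjusted p = 0.126, both edgeR), below every own control.

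Among upstream kinases and the control of AKT, TRIB3, a pseudokinase that binds AKT, rose with both stressors. It went from 81.1 ± 22.8 to 686 ± 337 CPM with OA (log2 fold change 3.08, adjusted p = 0.0157) and from 59.9 ± 0.724 to 557 ± 311 CPM with TN (3.22, adjusted p = 0.00662, SD, n = 3 each, edgeR). Without any 1 of the OA controls, its adjusted p was 0.0838 to 0.127. It was the only called gene of 14 tested with OA and 15 with TN in that list. Among 10 tested genes of the mTOR complexes and their assembly factors, TTI1, which helps to assemble mTOR, fell with TN from 64.6 ± 4.87 to 32.8 ± 4.37 CPM (log2 fold change -0.98, adjusted p = 0.0322, edgeR). With scaling to ACTB, it was at -0.64 and not called (adjusted p = 0.150), nor was it called without any 1 of the TN controls or without TN replicate 2 or 3. With OA, TTI1 was at -0.73 (adjusted p = 0.116), and 5 of 9 other settings called it lower.

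The list of mTORC1 outputs in the lysosome and growth control had a median of 1.31 with OA, with 6 of 8 above 0, and of 0.98 with TN, with 7 of 8 above 0. GRB10, an adaptor that dampens insulin signalling and is stabilized by mTORC1, rose by 1.81 with OA and by 1.07 with TN on the log2 scale (adjusted p = 0.0222 and 0.0313, edgeR). TFE3, a transcription factor of lysosomal genes that mTORC1 keeps in the cytoplasm, rose by 2.28 with OA (adjusted p = 0.0318) and was at 1.35 with TN (adjusted p = 0.0730), or 1.27 with the replicate block (adjusted p = 0.0240). With TN, 6 of 9 other settings called TFE3 higher. ATG13, a part of the kinase complex that starts autophagy, was at 1.39 with OA (adjusted p = 0.0784) and rose by 1.38 with TN (adjusted p = 0.0322, all edgeR). With OA, 6 of 9 other settings called ATG13 higher. The calls of GRB10, TFE3, and ATG13 given here were lost without any 1 of the own controls, those with OA also without OA replicate 3, and those with TN also without TN replicate 2 or 3, and TFE3 was at 1.69 without OA replicate 2. TFEB, the relative of TFE3, was at -0.94 and -0.86 and was not called (adjusted p = 0.143 and 0.116, edgeR). FNIP2, TFEB, and RHEB fall outside the rule for named genes and were chosen after their values were seen.

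**Figure D5:**
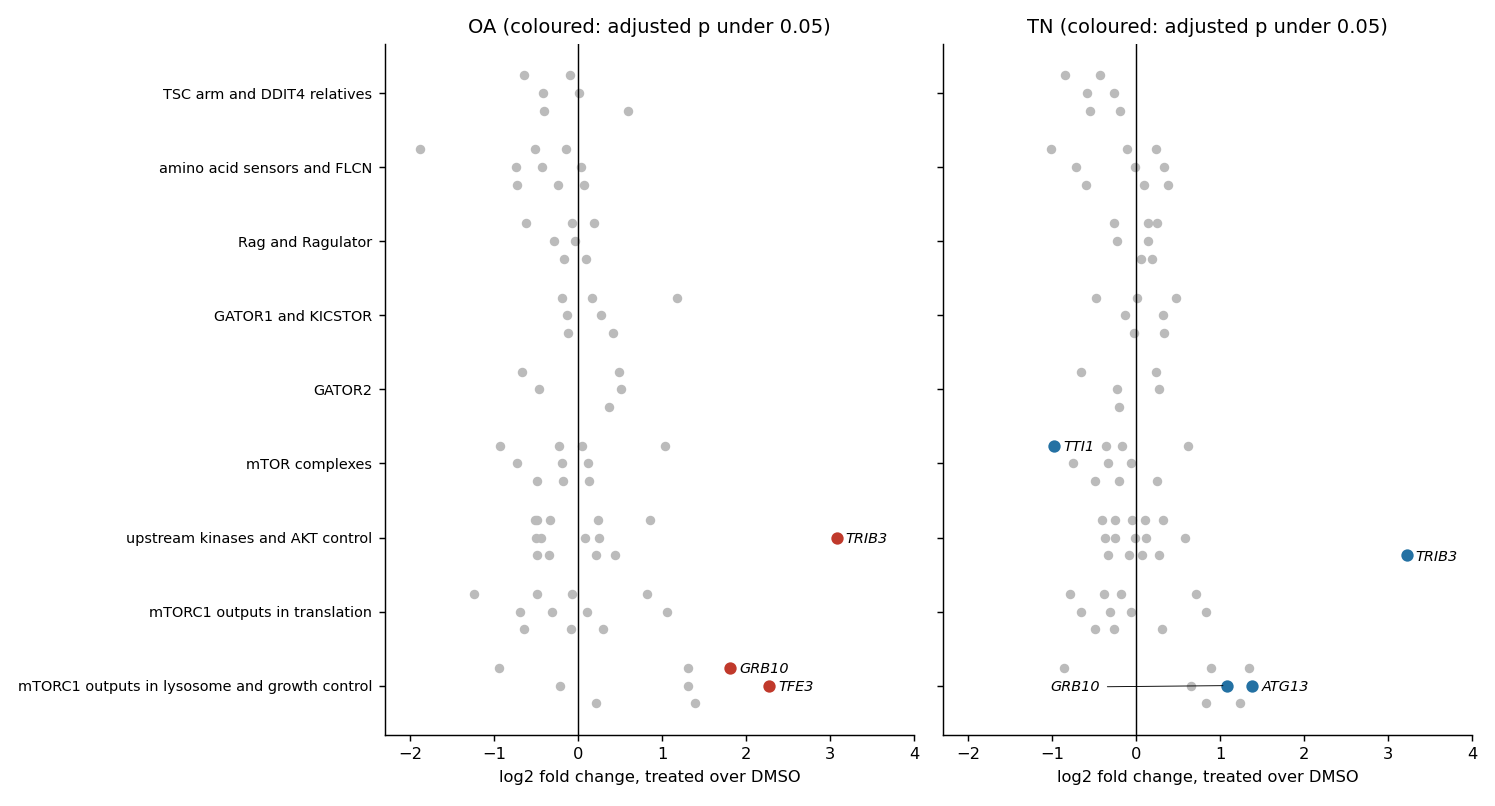
Log2 fold change of each tested gene of the 9 lists, for OA (left) and TN (right), coloured and named where the adjusted p was under 0.05. TRIB3 has the highest value at 3.08 and 3.22, and the remaining called genes are GRB10 and TFE3 with OA and GRB10, ATG13, and TTI1 with TN.

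For reference, 8 stress genes were read from the same fits, of which 6 were called higher with OA and 4 with TN, or 6 with TN in the fit with the replicate block, against the backgrounds of 4.48%, 6.99%, and 27.1%. ATF4, the transcription factor at its centre, rose from 512 ± 88.2 to 1336 ± 225 CPM with OA and from 467 ± 31.8 to 1280 ± 225 CPM with TN (log2 fold changes 1.38 and 1.46, adjusted p = 0.0280 and 0.00906, edgeR). DDIT3, which encodes CHOP, rose by 5.23 and 4.33 on the log2 scale (adjusted p = 0.0100 and 0.00240), of which the former was 4.53 without OA replicate 2. ASNS, asparagine synthetase, rose by 3.09 and 2.67, and CEBPB by 2.21 and 1.51. With OA, the calls of all 4 were lost without any 1 control, and those of ATF4 and CEBPB also without OA replicate 3. With TN, CEBPB was called only in the fits of all libraries and without TN replicate 1, ATF4 was not called without control replicate 2 or 3, and ASNS was not called without control replicate 3. ATF3 and CDKN1A were chosen after their values were seen. ATF3, a stress-induced transcription factor, rose by 3.49 with OA (adjusted p = 0.0313) and was at 0.96 with TN (adjusted p = 0.198, edgeR), and the difference of 2.40 was not called. Without a filter, it was called at 2.51 (adjusted p = 0.000114), among 25 genes in all, and without OA replicate 2 it was 1.30. CDKN1A, which encodes the cell cycle inhibitor p21, rose by 2.05 with OA (adjusted p = 0.0396) and was at 1.23 with TN (adjusted p = 0.0747), or 1.15 with the replicate block (adjusted p = 0.00247). Both calls with OA were lost without OA replicate 3 or any 1 control, and without OA replicate 2 the values were 2.29 for ATF3 and 1.39 for CDKN1A.

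The genes whose pattern was most like that of a given gene were sought among 8993 genes, by the root mean square difference over the 12 libraries of log2 CPM relative to the mean of the own controls. For DDIT4, these were CHAC1 (0.33), which degrades glutathione, DDIT3 (0.51), and IL20RB (0.55), a receptor chain of the IL-20 family, against a median of 3.04 over all genes. For SESN2, they were RBCK1 (0.26), a part of the linear ubiquitin ligase, FTH1 (0.27), the ferritin heavy chain, and TRIB3 (0.29), against a median of 2.35. Pseudogenes of FTH1 make its count uncertain. For EIF4EBP1, they were AKR1A1, ZFPL1, and LONP1, at 0.11 each against a median of 0.95, and none of these was called with either stressor. All genes share the depth and base composition of these 12 libraries, so that likeness over them is a description.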

How the data were processed

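Counts of 12 HCT116 libraries were analysed. The deposited values are raw counts per gene, which the authors made with STAR on hg38 and a Gencode annotation, so that only reads placed uniquely and in a single gene were counted. The strand column is not given in the sources used here. The labels name a stranded kit for total RNA, whereas the study's text calls the assay mRNA-seq. The authors' own tables of fold changes and p-values from DESeq2 were not used. Every column of counts could be assigned to a library, and no pair of replicates agreed within sampling noise (chi-square per gene at least 6.25). The labels call the replicates biological, and p-values measure the spread between them.

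Genes that passed filterByExpr underwent TMM normalization and a two-sided edgeR quasi-likelihood test (version 4.0.16, R version 4.3.3), each stressor against its own 3 DMSO libraries and without a replicate term. The Benjamini-Hochberg adjustment covered all genes tested. The difference between stressors was a contrast over all 12 libraries. Standard errors and 95% intervals come from the same fit. Ratios within a library used counts plus 0.5 and a two-sided exact permutation test. Levels at or under 3 counts were treated as not resolved. Library totals were 9884124 to 24983573 counts. The number of replicates limits precision, and CASTOR1 had at most 13 counts. In TN, deviations of same-numbered libraries from their group means correlated across genes at 0.64, 0.41, and 0.43, so the numbers, which the labels share between groups, were taken to pair them, although numbers 2 and 3 also correlated crosswise (0.38 and 0.44).

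The genes and lists were chosen with earlier results of these data known. Named were the 10 genes, 7 relatives (DDIT4L, SESN1, EIF4EBP2, EIF4EBP3, EIF4E, RRAGA, and RRAGB), called genes of each list (at most 4), ATF4, DDIT3, TRIB3, ACTB, and the 3 genes most like DDIT4, SESN2, and EIF4EBP1 with a mean of at least 10 CPM. Alternatives were DESeq2 1.42.0, its size factors, scaling to total counts or ACTB, a fit without a filter, a minimum of 10 counts per library, a pseudocount of 5, a replicate block, a single fit of all libraries, fits without each library in turn, and GC offsets. GC offsets were fitted per library to deviations from the own group mean, which lowers the spread within groups by design. Promoters are from RefSeq, and positions and transcript lengths are from Gencode 44. On simulated counts, the test recovered 100% of genes changed 4-fold and 50% of genes changed 2-fold among 200 changed genes in each comparison. The share recovered at the spread of the measured libraries was not tested. In these, COL1A1 was 4.05-fold higher with OA and was not called (adjusted p = 0.0723, edgeR).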

Additional observations from a re-analysis of the deposited data

How the results depend on the processing

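DDIT4 was called with OA and TN in all alternatives, and SESN2 with TN in all and with OA in all but those without 1 of the OA controls. The number of the 10 genes called with OA was 2 and ranged from 1 to 2 when a library was left out. It was 4 with the replicate block, which added EIF4EBP1 (1.04, adjusted p = 0.00442, edgeR) and SESN3 (-1.63, adjusted p = 0.00962). Same-numbered OA and control libraries correlated at 0.62, 0.54, and 0.09, the last under the 0.1 set as the rule for pairing. The numbers were therefore not taken to pair the OA libraries, although replicates 1 and 2 correlated best with their own number. The block raised the calls over all genes from 658 to 3914 with OA and from 1009 to 3915 with TN, and the replicate block changed no other call of the 10 genes than those given. Of the 77 pathway genes, the block called 10 higher and 10 lower with OA, among them 3 higher and 7 lower of the 45 genes in lists without a call. With TN, 2 were called in every fit that left out a library, 5 with the replicate block, and 4 with GC offsets, which were chosen after the data were seen and called 2966 genes with OA and 3355 with TN. EIF4EBP1 was also called with OA without a filter (adjusted p = 0.0314) and with scaling to ACTB for both stressors (adjusted p = 0.0294 with OA and 0.0313 with TN), which shifted the median of all genes to 0.42 with OA and 0.30 with TN, while scaling to total counts shifted it to -0.23 and -0.18. ACTB itself was at -0.49 with OA (adjusted p = 0.256) and -0.35 with TN (adjusted p = 0.426). Without 1 library, the calls over all genes ranged from 3 to 1179 with OA and from 151 to 2361 with TN, and DESeq2 called 1927 and 2162.

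Directions turned for values that were not called, and the cause was not tested. With scaling to total counts, TSC1 was at -0.037, RRAGC at -0.10, and RRAGA at -0.044 with OA, and RRAGA at -0.031 with TN. With scaling to ACTB, RRAGD was at 0.10 and RRAGB at 0.37 with OA. Leaving out 1 library gave -0.16 to 0.45 for RRAGC, -0.58 to 0.030 for RRAGD, and -0.34 to 0.19 for RRAGB with OA, and -0.35 to 0.64 for TSC2 and -0.020 to 0.26 for RRAGA with TN. The RRAGD to RRAGC ratio ranged from -1.02 to 0.31 with OA. For the change with OA minus that with TN, leaving out 1 library gave -0.15 to 0.064 for TSC1, -0.29 to 0.81 for TSC2, -0.075 to 1.04 for SESN2, -1.67 to 0.088 for SESN3, -0.14 to 0.73 for CASTOR1, -0.22 to 0.62 for DEPTOR, and -0.23 to 0.70 for EIF4EBP1. For TSC1, it was 0.00501 with DESeq2, 0.0053 with its size factors, and 0.018 without a filter. For TSC2, it was 0.030 with DESeq2, its size factors, and total counts, 0.034 without a filter, and 0.16 with the replicate block, which gave -0.048 for DEPTOR. Of 949 values of single genes under an alternative, 804 kept their direction and their side of the threshold.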
